A study of Mus musculus with 5 samples.

Results

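The acute-phase genes *Saa1*, *Saa3*, *Lcn2* and *Hp* were examined together with the IL-6 family cytokines *Il6* and *Lif*, their receptor chains *Il6st* and *Osmr*, the transcription factor *Stat3* and its feedback inhibitor *Socs3*. These are 10 of the 18193 genes that a probe set of the array names alone, and all 22 of their probe sets were taken. The genes were chosen by their differences between the low and the high dose on these same arrays. Those differences are therefore given as a description without p-values and support nothing further, and counts past the threshold are printed only beside the share over all genes. All 10 genes were past the filter on dim probe sets that left 12935 genes. Against that filter, a mean of 4.77, the second probe set of *Saa1* passed through H-LY29 alone (mean of 3.11 in L-LY29), as did the third of *Osmr* (4.69 in L-LY29), and 1 of *Stat3* passed through L-LY29 alone (4.21 in H-LY29).

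RNA came from optic nerves of C57BL/6 mice aged P35 to P45, cultured organotypically over 3 days in the presence of LY294002, which inhibits PI3K. There were 3 arrays of L-LY29, labelled 0.5 µM, and 2 of H-LY29, labelled 50 µM. The paper's methods give a higher L-LY29 dose for adult nerves than the labels do, and it could not be decided which of them was used. The compound is spelled LY294002 in sample titles but LY295002 in the treatment field. No transgene or reporter is named for these nerves. Control cultures, with saline in the labels and DMSO in the paper's methods, are not analysed here, so every difference is L-LY29 minus H-LY29 and does not say which dose departed from an untreated nerve. How mice and nerves were shared out over the arrays is not given, so a p-value reflects array-to-array spread only, which may be technical.

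In textbook accounts, cytokines of the IL-6 family bind a receptor of their own and the shared chain gp130, JAK kinases then phosphorylate STAT3, and STAT3 enters the nucleus and switches on its targets. One of these is *Socs3*, whose product shuts the receptor down. Acute-phase proteins are best known from the liver, where IL-6 acts together with IL-1, but injured nervous tissue also makes several of them, and *Lcn2* is a widely used marker of reactive astrocytes.

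The arrays of the doses differed in more than these genes. Poly-A control RNAs, which are added before labelling, averaged 9.97 to 10.45 log2 units on the L-LY29 arrays and 3.17 on both H-LY29 arrays. The 3′ minus 5′ difference of the beta-actin control, a measure of RNA and labelling quality, was 0.39 to 0.48 in L-LY29 against 0.84 to 0.99 in the other group. That of *Gapdh* was −0.15 to −0.09 against 0.65 to 0.73. Dose and these features of the preparation cannot be told apart. By limma, 73.8% of all tested genes passed an adjusted p of 0.05, and 83.1% had groups of arrays that did not overlap. The median difference over all genes was −0.26 log2 units, against 0.05 after quantile normalization and −0.05 with equal array medians. The split of the calls moved with it, from 3510 higher and 6032 lower in L-LY29 to 5069 and 4750 after quantile normalization, and to 4620 and 5178 with equal medians.

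The sequences before the start sites show where the genes carry short matches to motifs of the factors in this pathway. The 250 bases upstream of the start were taken from RefSeq (GRCm38.p6), which held 9 of the 10 genes in the table used here. The motifs searched on both strands were TTCNNNGAA for STAT factors, TTNNGNAA for C/EBP factors, and the kappaB motif of NF-kB. Capitals mark every match, and no match overlapped one of another motif in the stretches printed. *Saa3*, *Saa1* and *Lcn2* are shown as the acute-phase genes with the largest differences, *Il6* as the cytokine that went the other way, and *Socs3* as the 1 gene with a STAT match. They lie at chr7:46715677-46715926, chr7:46742981-46743230 and chr2:32387740-32387989 on the minus strand, chr5:30012864-30013113 on the plus strand and chr11:117969367-117969616 on the minus strand, all directly upstream of the annotated first exon.
Saa3: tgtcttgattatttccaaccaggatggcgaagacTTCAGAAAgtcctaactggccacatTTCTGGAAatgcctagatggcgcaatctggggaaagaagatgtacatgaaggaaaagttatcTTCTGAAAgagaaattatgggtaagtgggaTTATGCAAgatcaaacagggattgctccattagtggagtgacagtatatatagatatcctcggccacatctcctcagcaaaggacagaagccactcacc
Saa1: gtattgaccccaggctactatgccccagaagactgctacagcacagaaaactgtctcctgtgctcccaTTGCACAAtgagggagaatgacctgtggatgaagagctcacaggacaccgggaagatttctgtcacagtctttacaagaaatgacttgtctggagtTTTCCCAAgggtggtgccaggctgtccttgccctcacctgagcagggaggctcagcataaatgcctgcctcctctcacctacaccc
Lcn2: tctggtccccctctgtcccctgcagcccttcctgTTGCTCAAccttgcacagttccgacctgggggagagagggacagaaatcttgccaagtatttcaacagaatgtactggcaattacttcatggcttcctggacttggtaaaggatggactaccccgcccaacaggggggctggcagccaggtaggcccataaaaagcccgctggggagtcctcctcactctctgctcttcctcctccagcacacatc
Il6: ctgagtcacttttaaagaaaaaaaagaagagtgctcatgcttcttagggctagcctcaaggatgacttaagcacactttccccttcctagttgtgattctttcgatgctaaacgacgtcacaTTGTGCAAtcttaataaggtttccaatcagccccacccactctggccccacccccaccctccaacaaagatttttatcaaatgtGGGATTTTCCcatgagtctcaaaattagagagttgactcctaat
Socs3: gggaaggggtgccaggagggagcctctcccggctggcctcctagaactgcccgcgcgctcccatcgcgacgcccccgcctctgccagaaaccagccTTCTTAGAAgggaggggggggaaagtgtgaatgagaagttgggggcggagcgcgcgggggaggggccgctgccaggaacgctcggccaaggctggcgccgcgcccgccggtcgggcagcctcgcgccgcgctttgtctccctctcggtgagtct

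The *Saa3* stretch held 4 matches to the C/EBP motif, *Saa1* held 2, and *Lcn2* and *Il6* held 1 each. *Il6* also held a kappaB match 44 bases before its start, and the STAT match of *Socs3* began 154 bases before its start. Over the 9 genes, 5 had a C/EBP match, 2 a kappaB match and 1 a STAT match. Among 32851 promoters of the same length the shares with a match were 36.8% for C/EBP, 7.25% for kappaB and 7.02% for STAT. A match describes the letters only. In the same annotation *Saa1* and *Saa3* lie on chromosome 7 in a cluster with *Saa2* and *Saa4*, *Lif* lies beside *Osm*, *Osmr* beside *Lifr*, and *Stat3* beside *Stat5a* and *Stat5b*.

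Of the cytokines, *Il6* was brighter in L-LY29 and *Lif* in H-LY29. *Il6*, the cytokine that gives the family its name, had signals of 9.15, 10.14 and 10.01 on the L-LY29 arrays and of 7.95 and 8.45 on the H-LY29 arrays. Every L-LY29 array lay above both H-LY29 arrays, although the first L-LY29 array stood nearer to the higher of them than to the highest of its own group. The difference was 1.57 (standard error 0.36), or 2.96-fold. Its spread between the L-LY29 arrays, an SD of 0.54, was larger than that of 97.8% of the tested genes.

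*Lif*, which signals through *Lifr* and gp130 and is known as an injury cytokine of glia, had signals of 6.61, 6.93 and 7.49 in L-LY29 and of 10.14 and 10.52 in H-LY29 at its brighter probe set. The groups lay 2.65 log2 units apart at their nearest arrays. The difference was −3.32 (standard error 0.30), a signal 9.98-fold higher in H-LY29. The second probe set of *Lif* went the other way by 0.33, with 5.50 on all 3 L-LY29 arrays against 5.11 and 5.23. A value repeated exactly on several arrays understates the spread, and why values repeat was not tested.

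**Figure D1:**
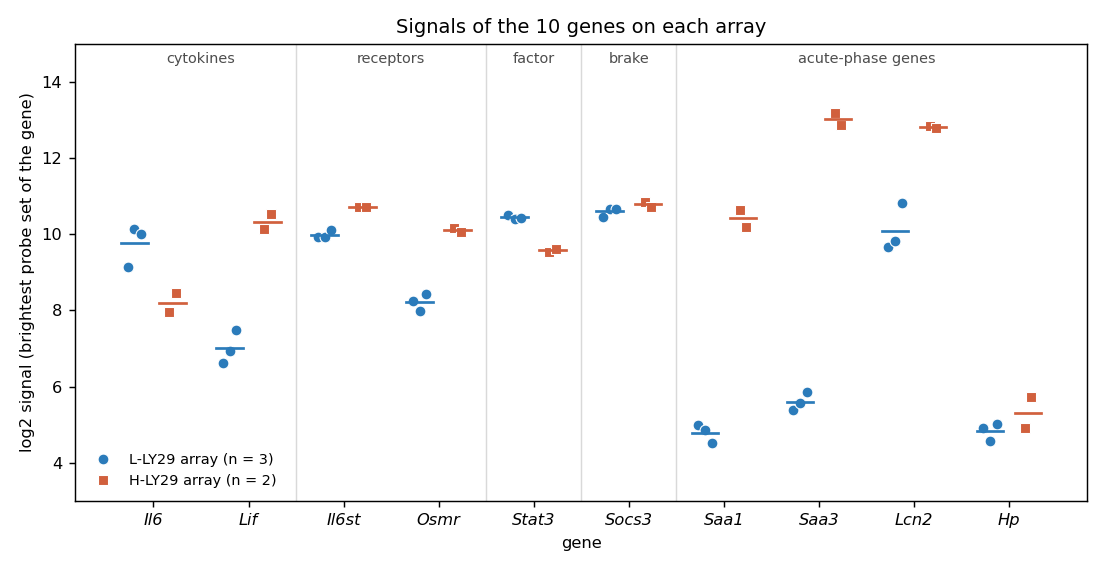
Log2 signal of the brightest probe set of each gene on every array, in the order cytokines, receptors, transcription factor, feedback brake and acute-phase genes, with a line at each group's mean (n = 3 L-LY29 and 2 H-LY29 arrays). *Saa3*, *Saa1*, *Lif*, *Lcn2* and *Osmr* stand higher in H-LY29, *Il6* and *Stat3* stand higher in L-LY29, and the arrays of *Hp* overlap. Levels of different genes on this axis come from different probes and are not comparable.

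Of the receptor chains, *Osmr* was brighter in H-LY29 at all 3 of its probe sets, whereas the 4 probe sets of *Il6st* disagreed. *Osmr* encodes the oncostatin M receptor, which pairs with gp130. Its brightest probe set read 8.24, 7.98 and 8.43 in L-LY29 and 10.17 and 10.06 in H-LY29, so that the groups stood well apart. The difference was −1.90 (standard error 0.15), or 3.73-fold, and the other probe sets gave −1.25 and −0.87.

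*Il6st* encodes gp130 itself. The probe set that stands for the gene read 9.92, 9.92 and 10.11 in L-LY29 and 10.71 on both H-LY29 arrays, a difference of −0.73 (standard error 0.08), and a second one gave −1.51 (standard error 0.25). The remaining probe sets were brighter in L-LY29, by 0.90 (standard error 0.08) and 0.29 (standard error 0.08). At each of the 4 the arrays of the doses did not overlap. Averaging them left −0.26, so the direction of gp130 RNA rests on the probe set taken. The 3′ minus 5′ control differences given above also differed between the doses, and their part in the disagreement was not tested.

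*Stat3*, the transcription factor that gp130 activates, was brighter in L-LY29 at 3 of its 4 probe sets. The one that stands for the gene read 10.52, 10.40 and 10.42 in L-LY29 and 9.54 and 9.62 in H-LY29, a tight separation with a difference of 0.87 (standard error 0.06), or 1.83-fold. Larger differences of 2.28 and 1.56 were seen at 2 others. The fourth read 6.64 on all 3 L-LY29 arrays and 6.67 and 7.20 in H-LY29, a difference of −0.29 (standard error 0.17) that turned to 0.23 after quantile normalization. These are levels of RNA and say nothing about phosphorylated STAT3, which is the active form.

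*Socs3*, the STAT3-induced inhibitor of gp130 signalling, differed least. Its brightest probe set read 10.47, 10.67 and 10.67 in L-LY29 and 10.85 and 10.72 in H-LY29. The groups missed each other by 0.05, and the difference of −0.19 (standard error 0.09) turned to 0.026 with equal array medians. A second probe set gave −0.58 (standard error 0.06) without overlap. The third gave 0.18 (standard error 0.09) with arrays that overlapped. It passed with 0.59 after quantile normalization and with 0.39 at equal array medians. No direction can be given for *Socs3*.

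**Figure D2:**
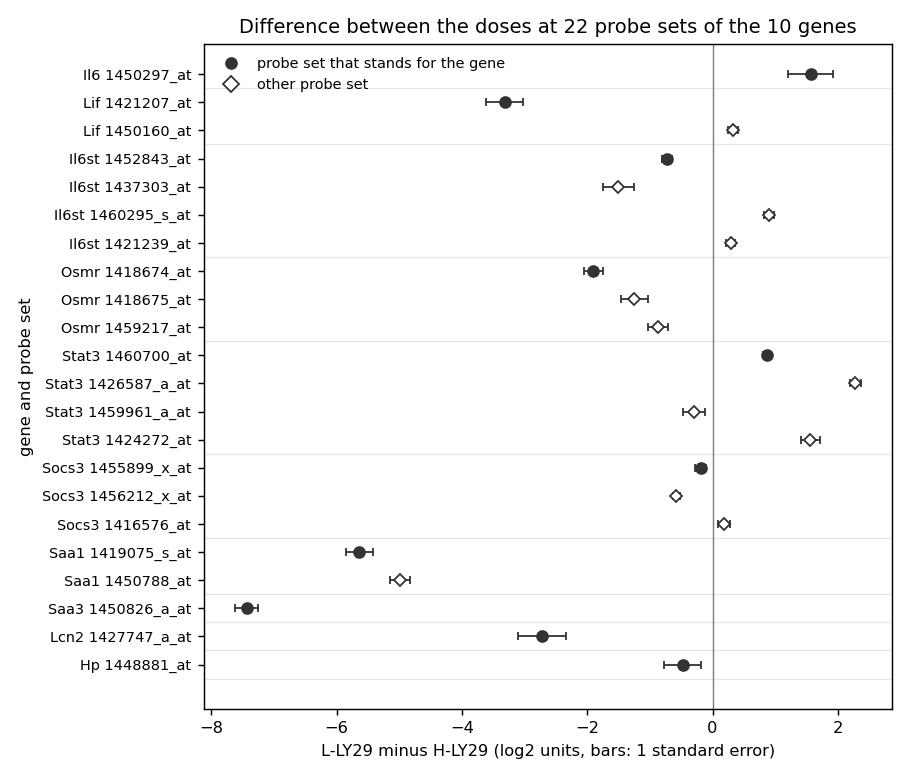
Difference between the doses (L-LY29 minus H-LY29, log2 units, bars of 1 standard error from limma) at each of the 22 probe sets. Filled circles are the probe sets that stand for a gene, and open diamonds are the others. *Osmr* and *Saa1* keep 1 direction at all their probe sets, whereas *Lif*, *Il6st*, *Stat3* and *Socs3* have points on both sides of 0.

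The serum amyloids stood out among the acute-phase genes. *Saa3*, an isoform made outside the liver by macrophages and stromal cells among others, read 5.38, 5.56 and 5.85 in L-LY29 and 13.19 and 12.87 in H-LY29. The L-LY29 signals were near the array medians of 5.33 to 5.35, and the H-LY29 signals were close to the top of the arrays, whose highest values were 14.35 and 14.38. The difference was −7.44 (standard error 0.18), or 173-fold on the scale of the deposited signals. The deposited table holds no detection calls, so whether *Saa3* was detected at all in L-LY29 was not tested, and the fold depends on that low level.

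*Saa1*, a circulating serum amyloid, read 4.99, 4.86 and 4.51 in L-LY29 and 10.65 and 10.20 in H-LY29 at the probe set that stands for it, a difference of −5.64 (standard error 0.21). The platform annotation names this probe set *Saa1*, but the transcript it cites is *Saa2* in RefSeq. The probe set that cites the *Saa1* transcript read 3.37, 2.91 and 3.06 in L-LY29 and 8.17 and 8.04 in H-LY29, a difference of −4.99 (standard error 0.16). Both were far apart between the doses. *Saa1* and *Saa2* are close copies, and how much of each signal came from either gene is uncertain.

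*Lcn2*, which encodes the iron-siderophore carrier lipocalin-2, was already bright in L-LY29. It read 9.66, 9.81 and 10.83 there and 12.83 and 12.81 in H-LY29, a difference of −2.72 (standard error 0.39), or 6.59-fold. The groups did not overlap, but the third L-LY29 array stood about 1 log2 unit above the other two. The SD of 0.64 between L-LY29 arrays was larger than that of 98.5% of the tested genes. *Hp*, encoding the haemoglobin-binding protein haptoglobin, read 4.92, 4.57 and 5.02 in L-LY29 and 4.92 and 5.71 in H-LY29. The arrays of *Hp* overlapped, and its difference of −0.48 (standard error 0.29) ranged from −0.88 to −0.08 when single arrays were left out.

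Over the 22 probe sets, the arrays of the doses did not overlap at 20, of which 7 were brighter in L-LY29 and 13 in H-LY29, against 72.4% of all probe sets. In the fit over all probe sets 18 of them passed, where 59.0% of all did. In the fit of genes 8 of the 10 passed and 9 did not overlap, where 73.8% and 83.1% of all genes did. The 8 were *Il6* and *Stat3* towards L-LY29 and 6 towards H-LY29, beside backgrounds of 27.1% and 46.6%. Since these genes were chosen on this contrast, nothing is read from the counts. Of the 6 genes with several probe sets, 2 (*Lif* and *Il6st*) had probe sets that passed in both directions. The *Lif* probe set brighter in L-LY29 no longer passed when any L-LY29 array was left out, nor with the replicate block.

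The genes whose pattern over the 5 arrays was most like that of *Saa3*, by the Euclidean distance between centred signals, were *Col1a1*, which encodes a chain of type I collagen (distance 0.89), the ion channel gene *Piezo2* (1.40) and *Rrm2*, a subunit of ribonucleotide reductase (1.42). All 3 were high in H-LY29, with mean signals between 4.55 and 5.41 in L-LY29 against 10.73 to 12.05. Nearest to *Lcn2* were *Timp1*, an inhibitor of matrix metalloproteinases (0.36), *Kcnj8*, which encodes a potassium channel subunit (0.38), and *Col4a2*, a basement membrane collagen chain (0.38). *Timp1* read 10.38, 10.50 and 11.56 in L-LY29 and 13.21 on both H-LY29 arrays, and like *Lcn2* it was highest on the third of the L-LY29 arrays. *Piezo2*, *Rrm2* and *Kcnj8* passed the filter through H-LY29 alone, with means of 4.73, 4.55 and 4.33 in L-LY29. Their place among the genes compared thus rests on the group in which they were high. These likenesses describe 5 arrays in which the dose sets most of the pattern.

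**Figure D3:**
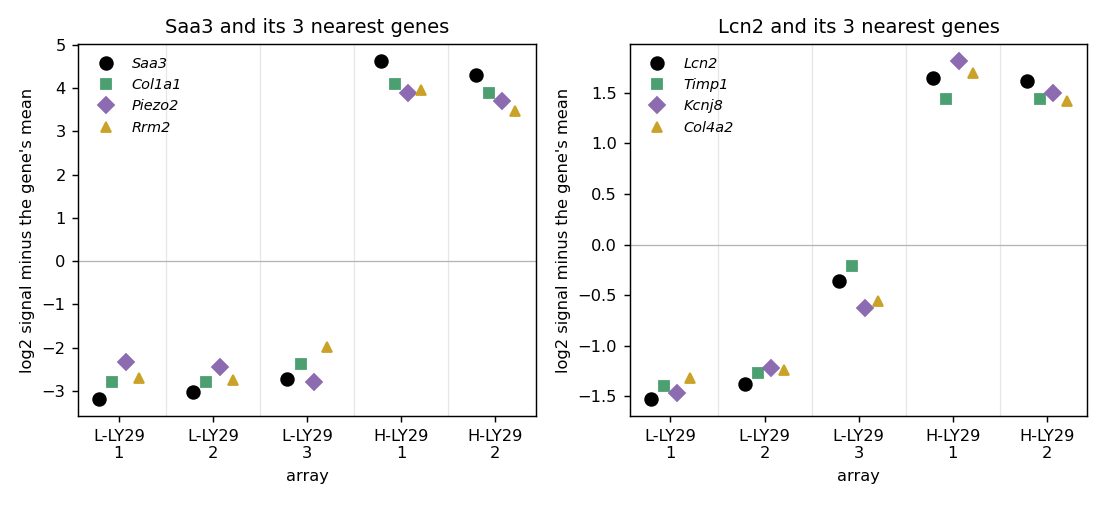
Signals of *Saa3* and of *Lcn2* with their 3 nearest genes on each array, each minus the gene's mean over the 5 arrays (log2 units). All genes stand higher on both H-LY29 arrays, and among the L-LY29 arrays *Lcn2* and its neighbours stand highest on the third.

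The other genes of the acute-phase response that passed the test were all lower in L-LY29 at the probe set that stands for each. Among the 3 with several probe sets that passed, 1 had probe sets that passed in both directions. Of 36 listed, 31 were on the array and 13 past the filter, and 10 of these were lower in L-LY29, 0 higher and 3 not past the test, with a median difference of −1.55 against −0.26 over all genes. The share called, 76.9%, was near the 73.8% over all genes, of which 46.6% were lower. *Saa2* read 3.43, 3.23 and 2.92 in L-LY29 and 8.60 and 8.27 in H-LY29, a difference of −5.24. It passed the filter through H-LY29 alone, and it cites the same transcript as the probe set that stands for *Saa1*, so it is no separate observation. *Cp*, which encodes the copper carrier ceruloplasmin, read 8.01, 7.64 and 8.56 against 11.23 and 10.96 (−3.02, standard error 0.29, adjusted p = 0.000498). The metallothionein gene *Mt2* fell by 1.60 and the protease inhibitor gene *A2m* fell by 2.57 in L-LY29 relative to H-LY29. *Ptx3*, the long pentraxin, did not pass, with 9.81, 6.98 and 10.12 in L-LY29 against 10.61 and 10.31. Without the filter the list's median was −0.15, with 4 genes higher among the 17 that passed.

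Among the remaining ligands and receptors of the IL-6 family the direction depended on the probe sets taken. Of 8 tested, 5 were lower in L-LY29, 0 higher and 3 not past the test, with a median of −0.81. The share called was 62.5%, against 73.8% of all genes. With the mean of each gene's probe sets 2 were lower and 2 higher, and the median was −0.0037. *Il11*, a gp130 cytokine, read 7.23, 6.72 and 8.67 in L-LY29 and 9.98 and 10.03 in H-LY29 (−2.47, standard error 0.59, adjusted p = 0.0144 by limma). The cardiotrophin-like cytokine gene *Clcf1* differed by −1.84 (standard error 0.30, adjusted p = 0.00348), but its other probe sets gave 0.29 and 0.41 and did not pass. The LIF receptor gene *Lifr* differed by −0.74 at its brightest probe set and by 1.63 and 1.35 at the others, and averaging them turned it to 0.74. *Cntfr*, the CNTF receptor chain, likewise gave −0.84 and 0.58. *Il6ra*, the IL-6-binding chain, was 5.92, 6.43 and 6.53 against 7.54 and 6.61 and did not pass (adjusted p = 0.0933, limma). The oncostatin gene *Osm* did not pass either. After quantile normalization 3 of the list were lower and 1 higher, and with single arrays left out 2 to 4 passed.

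Downstream, the JAK-STAT genes split between the doses. Of 25 tested, 10 were higher in L-LY29, 11 lower and 4 not past the test, shares of 40% and 44% where 27.1% and 46.6% of all genes were. The median of 0.23 was 0.017 and 0.019 without the first and the second H-LY29 array, and 0.47 after quantile normalization. *Stat5a*, a neighbour of *Stat3* in the genome and in function, read 5.89, 5.66 and 5.52 in L-LY29 and 9.80 and 9.53 in H-LY29 (−3.97, standard error 0.16, adjusted p = 5.50e-05 by limma). At this probe set it thus differed in the direction opposite to *Stat3*. A second, dimmer probe set of *Stat5a* gave −0.11 and did not pass. *Ptpn1*, a phosphatase that acts on JAK kinases, read 9.56, 9.56 and 9.62 against 7.15 and 6.81 (2.60, standard error 0.12, adjusted p = 7.08e-05). Its other probe set gave 0.45 and did not pass. The SOCS family member *Socs6* differed by 1.86 and *Ptpn11*, which encodes the phosphatase SHP2, by 0.67 at their brightest probe sets. A further probe set of *Socs6* went the other way, by −1.16, and another gave −0.20 and did not pass. Other probe sets of *Ptpn11* gave 2.86, which passed, and −0.58, which did not. Probe sets passed in both directions in 9 of the 14 genes of the list that had several that passed.

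Of 31 known STAT3 targets tested, 20 were lower in L-LY29, 3 higher and 8 not past the test, with a median of −1.16 against −0.26 over all genes. The share called, 74.2%, was that of all genes (73.8%), and 64.5% were lower where 46.6% of all genes were. Probe sets passed in both directions in 4 of the 13 genes of the list that had several that passed. With the mean of each gene's probe sets 22 were lower and 6 higher. The kinase gene *Pim3* read 10.15, 10.18 and 10.36 in L-LY29 and 13.43 and 13.50 in H-LY29 (−3.23, standard error 0.08, adjusted p = 4.04e-05 by limma). Its other probe sets gave −0.80, which passed, and −0.12, which did not. *Twist1*, a mesenchymal transcription factor, read 4.47, 4.87 and 4.83 against 9.04 and 9.10, a difference of −4.34, and passed the filter through H-LY29 alone. Of the other genes lower in L-LY29, *Birc5* also passed the filter through H-LY29 alone (mean of 4.44 in L-LY29). *Ccnd1*, encoding cyclin D1, and *Klf6*, a zinc-finger factor known in injury, differed by −2.14 and −1.49 at their brightest probe sets, with other probe sets at up to 0.59 and 2.50. The genes higher in L-LY29 were *Cebpb* (2.22), *Junb* (0.67) and *Myc* (0.64), all transcription factors of early responses. The first of these encodes the C/EBP factor tied to IL-6 signalling and read 11.37, 11.49 and 11.59 against 9.46 and 9.06. These 3 were named after their values were seen, as was *Gfap*, the astrocyte filament gene, which read 11.42, 10.97 and 11.42 against 11.53 and 11.67 and did not pass. Other pathways also regulate these genes.

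The genes of IL-1, TNF and NF-kB, which act beside IL-6 in the acute-phase response, showed no common direction. Of 32 tested, 9 were higher in L-LY29, 14 lower and 9 not past the test. These shares, 28.1% and 43.8%, were near the 27.1% and 46.6% over all genes. The median was −0.20, which turned to 0.30 after quantile normalization, where 14 were higher and 13 lower. The double-stranded RNA receptor gene *Tlr3* differed by −4.55 (standard error 0.20, adjusted p = 6.50e-05), the NF-kB inhibitor gene *Nfkbie* by −2.74, and the IL-1 receptor antagonist gene *Il1rn* by −1.33 at its brightest probe set but by 1.59 at another. *Cd14*, an endotoxin co-receptor of microglia, read 12.34, 12.68 and 12.55 in L-LY29 and 10.85 and 10.62 in H-LY29 (1.79, standard error 0.13, adjusted p = 0.000195, limma). The cytokines *Il1b*, *Il1a* and *Tnf*, named after their values were seen, were higher in L-LY29 as *Il6* was, by 2.07, 1.11 and 1.08, and *Tnf* passed the filter through L-LY29 alone.

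Of 10 tested receptors and carriers of the acute-phase proteins, 3 were higher in L-LY29, 6 lower and 1 not past the test, shares of 30% and 60% beside 27.1% and 46.6% of all genes. The median was −1.28, and −0.80 after quantile normalization. *Mmp9*, a gelatinase that lipocalin-2 binds, read 5.04, 4.64 and 4.88 against 8.91 and 9.03 (−4.12, standard error 0.15, adjusted p = 4.85e-05 by limma). *Cd163*, the haptoglobin-haemoglobin scavenger receptor of macrophages, differed by −2.78, and *Hmox1*, which encodes the haem-degrading enzyme, by −1.72. *Itgam*, a chain of the complement receptor of myeloid cells, read 8.91, 9.36 and 9.15 against 5.81 and 5.36, a difference of 3.56. The lipocalin receptor gene *Slc22a17* was higher in L-LY29 by 0.72. So was *Cd36*, by 3.12, but it passed the filter through L-LY29 alone (mean of 4.60 in H-LY29).

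**Figure D4:**
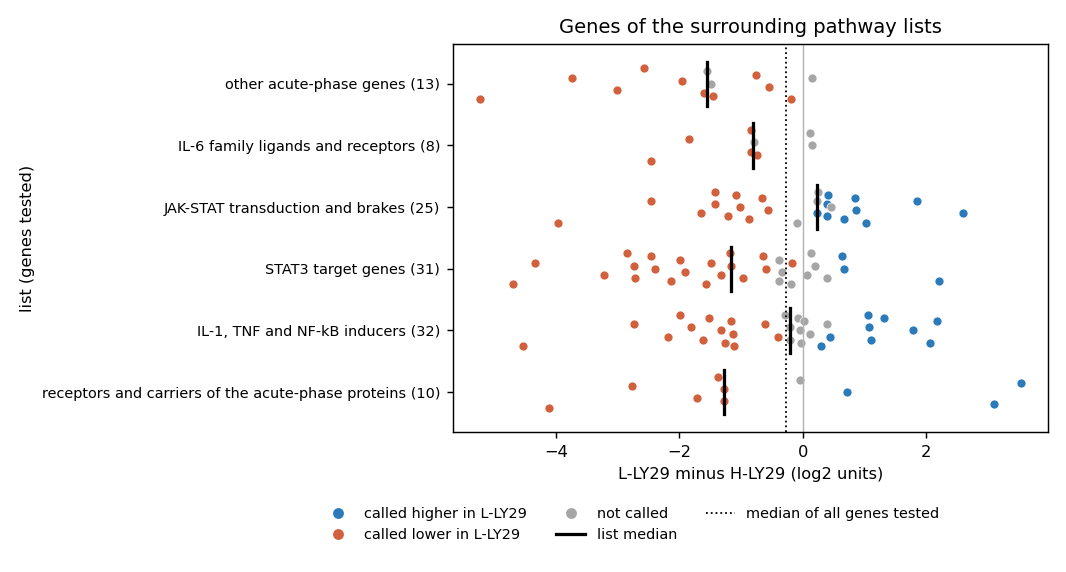
Difference between the doses (L-LY29 minus H-LY29, log2 units) for each tested gene of 6 pathway lists that hold none of the 10 genes, coloured by the limma call, with list medians as bars and a dotted line at the median over all genes. Called acute-phase and IL-6 family genes lie to the left of 0, as do 20 of the 23 called STAT3 targets, and the JAK-STAT and the IL-1, TNF and NF-kB genes lie on both sides.

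Marker lists of cell types moved with the dose as well. The mean signal of 10 meningeal fibroblast markers was 8.31 to 8.71 on the L-LY29 arrays and 10.33 to 10.75 on the H-LY29 arrays, and 9 of the 10 were lower in L-LY29. *Col1a1*, the gene nearest to *Saa3* above, is in this list, so these are not separate observations. The 10 astrocyte markers averaged 8.76 to 9.53 against 10.69 to 10.77, with 6 lower and 1 higher in L-LY29. These lists were thus higher in the group in which *Saa3*, *Saa1*, *Lcn2*, *Lif* and *Osmr* were. The 9 microglia and macrophage markers averaged 9.20 to 9.34 in L-LY29 against 8.21 to 8.46, with 7 higher and 2 lower. *Il6* and *Stat3* were also higher in L-LY29, but so were further lists. Of the endothelial markers 4 were called higher and 1 lower there, and of the ocular surface markers 13 and 0. Of the oligodendrocyte markers 6 were higher and 3 lower, and of the retina markers 2 and 0. In bulk tissue, fewer cells of a type and less RNA per cell cannot be told apart, and the part of either in these results was not tested.

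Some cells known for acute-phase genes left little or mixed signal. The 9 hepatocyte markers averaged 4.53 to 4.56 in L-LY29 and 4.15 on both H-LY29 arrays, below the array medians. The 9 neutrophil markers averaged 5.22 to 5.36 and 5.27 to 5.29, with 2 called in each direction. Their differences, with the genes named after their values were seen, ran from −3.41 (*S100a8*) and −3.10 (*Camp*) to 1.68 (*Ngp*), 1.79 (*Elane*) and 2.03 (*Csf3r*). Oligodendrocyte markers, those of the main cell type of the labelled tissue, were bright on all arrays at 12.28 to 12.54. Per the paper's methods, nerves were removed with the retina, and before culture the arachnoid membrane and other attached tissue were cleaned off. The 9 retina markers averaged 3.93 to 4.50. The 14 markers of ocular surface epithelium averaged 10.47, 7.66 and 8.68 on the L-LY29 arrays and 4.14 and 3.96 in H-LY29. The part of these cells in the signals of the 10 genes was not tested. None of the markers in these lists was at or under the mean of the *trpn* controls on all arrays.

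**Figure D5:**
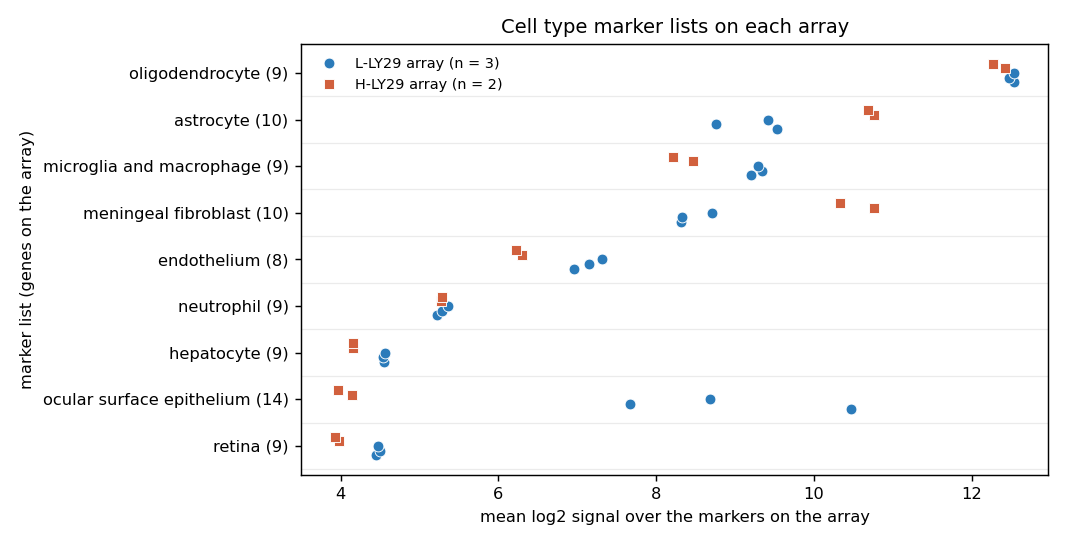
Mean log2 signal of each cell type marker list on every array (brightest probe set of each gene, 3 L-LY29 and 2 H-LY29 arrays). Meningeal fibroblast and astrocyte lists stand higher in H-LY29, microglial, endothelial and ocular surface lists stand higher in L-LY29, and the neutrophil list is level.

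The directions of 9 of the 10 genes were the same under every alternative that gave them a value in the fit of genes, the exception being *Socs3*. Apart from averaging, these alternatives kept the probe set that stands for the gene. They do not settle the direction where other probe sets went the other way, as for *Lif*, *Il6st* and *Stat3*. Leaving out single arrays, the difference of *Saa3* ranged from −7.60 to −7.27, that of *Lcn2* from −3.09 to −2.50, that of *Lif* from −3.56 to −3.12 and that of *Il6* from 1.31 to 1.88. The count past the threshold went from 8 to 7 without either H-LY29 array, and the gene that left it was *Il6*. Averaging its probe sets shrank the difference of *Lif* to −1.49.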

How the data were processed

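RNA of cultured optic nerves was hybridised to Affymetrix mouse arrays. Labels put 3 of them in L-LY29 and 2 in H-LY29. Per the paper's methods the authors read the images in Affymetrix software and normalised them with the MAS-5 algorithm in GeneSpring GX 12. The deposited table gives a log2 signal for each of 45101 probe sets, taken as it stood. Its scaling target, and why some values repeat exactly between arrays, are not given in the sources used here. Precision is limited by how few arrays there were.

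Of the probe sets 34945 name 1 gene, 932 several and 9211 none, and 13 are control probe sets that name a gene. The fit of genes took only the first kind. Probe sets with a mean under the 40th percentile (4.77) were left out, and the brightest remaining one stood for its gene. Groups were compared with limma 3.58.1 in R 4.3.3 (lmFit, eBayes with an intensity trend, two-sided, Benjamini-Hochberg over 12935 genes). A second fit held all probe sets without a filter and gave the standard errors of the 10 genes. The fit was tested on simulated data without the preparation differences between the doses, so that test does not bear on them.

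The 10 genes, the pathway and marker lists and the tests were chosen with earlier results of these data known. Named were all 10 genes, 4 genes a list by smallest adjusted p, the 3 genes nearest to *Saa3* and to *Lcn2*, and others as stated. *Ptx3*, *Il6ra*, *Osm* and *Slc22a17* were named outside this rule with their values known. *Birc5* and *Cd36* were named for how they passed the filter. Alternatives were no filter, a 60th percentile filter, quantile normalization, equal array medians, a floor at the 30th percentile, averaging the probe sets of a gene, eBayes without trend, the replicate number as a block, and each array left out. Groups of 3 and 2 arrays were too small for a test of single outlying arrays.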

Additional observations from a re-analysis of the deposited data

How the results depend on the processing

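Of 1070 values from the alternatives, over 88 results, 985 kept their direction and their side of the threshold or their size, and 4 differences of a gene or probe set reversed. The median of the IL-1, TNF and NF-kB list also changed sign, from −0.20 to 0.30 after quantile normalization and to 0.015 with equal array medians, as did that of all genes, from −0.26 to 0.05 after quantile normalization. *Socs3* turned from −0.19 to 0.026 with equal array medians, at the gene and at its probe set. *Lifr* turned to 0.74 with the mean of its probe sets, and a probe set of *Stat3* turned to 0.23 after quantile normalization. The number of other acute-phase genes called, 10, was 17 without a filter and 6 with the filter at the 60th percentile, which test more and fewer genes. Leaving out single arrays, 2 to 4 of the IL-6 family list passed in place of 5, with 3 without the first L-LY29 array, 3 without the first H-LY29 array and 2 without the second. Over the same settings 7 to 8 of the 10 genes and 7 to 11 of the other acute-phase genes passed. Where the H-LY29 group was left with 1 array, it is assumed to vary as the L-LY29 arrays do.

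The replicate numbers are not said to pair the samples, and same-numbered deviations correlated at 0.02 and 0.03. With the replicate block, which leaves out the third L-LY29 array's part in the difference, 8359 genes, 20098 probe sets and 8 of the 10 genes passed. JAK-STAT genes called higher in L-LY29 went from 10 to 6. The cause of the changes with scaling was not tested. The deposited table holds no detection calls, so whether the dimmest signals, such as *Saa1* and *Saa3* in L-LY29, stood above background was not tested.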
